A study of Mesocricetus auratus with 10 samples.

Results

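A group of 9 genes that carry fatty acids into the liver cell, bind them there and activate them were examined: CD36, SLC27A2 and SLC27A4 for uptake, FABP1 and DBI for binding, and ACSL1, ACSL3, ACSL4 and ACSL5 for activation. They were taken as every non-control probe whose design name is one of these symbols, which gave 61 of the array's 116452 probes and 9 of its 14435 named genes. The livers came from 10 male golden hamsters (Mesocricetus auratus) on a high fat diet (HFD), and each was measured against 1 pool of liver RNA from 10 hamsters on a standard diet (STD). The series describes the diet as inducing fatty liver. The sources used here give no strain, age, diet composition or feeding time. Each HFD liver met the pool on 2 arrays of 2 colours in opposite dye orientations, which makes 20 arrays for 10 animals. No STD animal was hybridised singly, so the spread between STD animals does not enter any test. In whole liver RNA, fewer cells of a type and less RNA per cell cannot be told apart.

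Long-chain fatty acids reach hepatocytes from blood, cross the membrane with the help of CD36 and of the fatty acid transport proteins of the SLC27 family, and travel in the cytosol bound to FABP1. Acyl-CoA synthetases of the ACSL family then join them to coenzyme A, which traps them in the cell and commits them to storage or oxidation. The resulting acyl-CoA esters are carried by DBI, the acyl-CoA binding protein. The ACSL enzymes differ in membrane and substrate: ACSL1 and ACSL5 are prominent in liver, ACSL3 is tied to the endoplasmic reticulum and lipid droplets, and ACSL4 prefers arachidonate.

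The values depend on which stretch of RNA a probe reads, so the probes behind the main results are given first, each 60 bases, 5′ to 3′, as on the array. These are the probes that stood for the 5 genes that fell, each the brightest of its gene.
DBI CUST_40983: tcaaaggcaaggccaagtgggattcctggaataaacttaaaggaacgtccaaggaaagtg
ACSL5 CUST_88105: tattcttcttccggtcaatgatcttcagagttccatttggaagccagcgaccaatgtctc
ACSL1 CUST_78309: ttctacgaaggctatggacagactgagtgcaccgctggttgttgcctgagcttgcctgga
CD36 CUST_73033: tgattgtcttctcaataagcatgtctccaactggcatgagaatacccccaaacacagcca
FABP1 CUST_41538: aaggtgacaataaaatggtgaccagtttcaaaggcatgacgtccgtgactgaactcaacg

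ACSL1 is covered by several assembled transcripts of the array's design, and 2 of its probes lie on opposite strands of the same stretch. The capitals mark the 41 bases that CUST_78305, of transcript hamV2-106212, and CUST_60347, of transcript hamV2-73051, share as reverse complements. The third probe is the only one of transcript hamV2-232 and had the lowest ratio of all members.
ACSL1 CUST_78305: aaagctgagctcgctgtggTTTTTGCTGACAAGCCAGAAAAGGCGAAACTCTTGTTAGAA
ACSL1 CUST_60347: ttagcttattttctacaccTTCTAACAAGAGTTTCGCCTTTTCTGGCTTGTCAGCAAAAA
ACSL1 CUST_32511: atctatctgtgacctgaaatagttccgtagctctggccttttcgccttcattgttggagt

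Between the 61 member probes and all probes of the array, a search for shared runs of at least 20 bases on either strand found 2 overlaps. The other one joined ACSL1 CUST_78307 to a probe of an unnamed transcript over 29 bases of the same strand, and that probe also read lower in HFD livers (mean log2 ratio -0.96 ± 0.40, SD, n = 10, adjusted p 6.77e-06 over all probes, limma). A probe was called open where at least 1 reading frame held no stop codon. All 5 CD36 probes were open as reverse complements and 4 as printed, and all 9 ACSL5 probes were open both ways. Over the array 89.8% of probes were open as printed and 87.0% as reverse complements, so a single probe says little. Which strand's RNA the probes bound was not tested, for CD36 and ACSL5 as for the other genes.

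The main comparison asked which of these genes differ between HFD liver and the STD pool. Of the 9 genes, each read by its brightest probe, 5 fell in HFD livers at an adjusted p under 0.05, 4 did not pass and 0 rose (0 also at an unadjusted p under 0.05). Among all 13828 named genes tested, 28.9% fell and 31.4% rose (60.3% in either direction), so that a call on its own is common on this array. The median log2 ratio of the 9 genes was -0.30, beside 0.01 over all named genes. The fall was about 1.95-fold for DBI and 1.94-fold for ACSL5, 1.45-fold for ACSL1, 1.41-fold for CD36 and 1.23-fold for FABP1. The call of CD36 at its brightest probe was lost without 6 arrays, and the direction of FABP1 turned with the dye, as given with each gene.

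**Figure D1:**
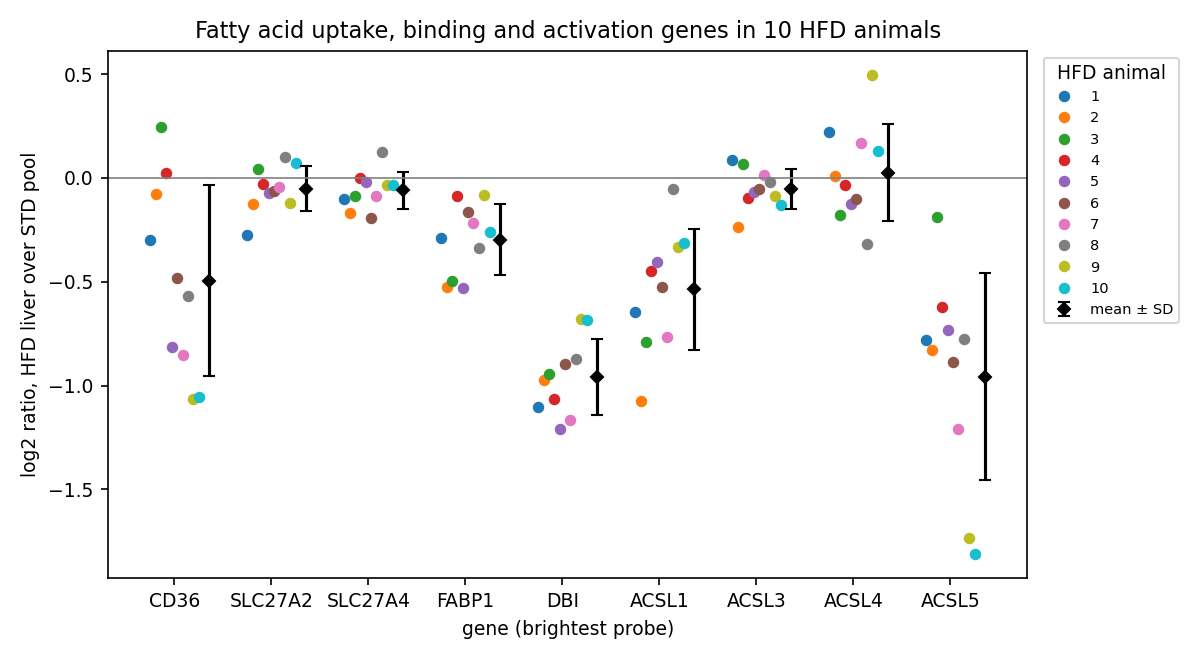
Log2 ratio of HFD liver over the STD pool (y axis) for the 9 genes (x axis). Each coloured point is 1 of the 10 HFD animals and the black diamond is their mean with SD. DBI, ACSL5, ACSL1 and FABP1 lie below 0 in all 10 animals, CD36 in 8, and the other 4 genes lie on both sides of 0.

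All values below are log2 ratios of HFD liver over the pool, as mean ± SD between the 10 animals, with p-values from limma, two-sided, adjusted by Benjamini-Hochberg over all named genes for the gene values and over all 103879 probes for other probes. A level is the normalised log2 signal of 1 probe averaged over the 2 dyes, and is compared only within a probe.

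CD36, the membrane receptor that takes up long-chain fatty acids and oxidised lipoproteins, had a mean ratio of -0.49 ± 0.46 (adjusted p 0.00346). Its level was 8.0 at the lowest, 8.58 at the median and 9.29 at the highest in the 10 HFD livers, against 8.90, 9.08 and 9.18 in the 10 measurements of the pool. The HFD range thus held the whole pool range. The ratio was below 0 in 8 of 10 animals, and animals 3 and 4 stood at 0.24 and 0.02. The 6 arrays of animals 5 to 10 that carried HFD RNA in Cy3 read between -1.85 and -1.09, while the same dye gave -0.16 to 0.33 in animals 1 to 4. The 10 arrays with HFD RNA in Cy5 read between -0.44 and 0.20, with a mean of -0.15 (adjusted p 0.0643). Without those 6 arrays the ratio was -0.05 and no longer called (adjusted p 0.59). That limma fit took the other 14 arrays singly, with a dye term and animal as a random block. In scan session 1 alone the ratio was -0.52 (adjusted p 0.0179) and in session 3 alone -0.39 (adjusted p 0.109). All 5 CD36 probes were called lower, with means from -0.49 to -0.16. On the arrays with HFD RNA in Cy5 the dimmer probes had means from -0.29 (CUST_73032) to -0.02 (CUST_73028). CUST_73032 read between -0.54 and -0.02 on those arrays.

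SLC27A2, a transport protein that is also a very long-chain acyl-CoA synthetase and is abundant in liver, did not pass the test at its brightest probe (-0.05 ± 0.11, 95% interval -0.12 to 0.02, adjusted p 0.219). Its level was 15.04, 15.22 and 15.41 (lowest, median, highest) in HFD livers, against 15.11, 15.30 and 15.34 in the pool, so the HFD range held the pool range. Of its 8 probes, all of 1 transcript, 3 fell and 5 did not pass, with means from -0.25 to 0.02. The probe that fell most was CUST_85259 (-0.25 ± 0.11, adjusted p 5.21e-05), below 0 in 10 of 10 animals. The brightest probe passed on the arrays with HFD RNA in Cy5 alone (-0.11, adjusted p 0.0162) and not on those with HFD RNA in Cy3 (0.013).

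SLC27A4, a transport protein of the same family with acyl-CoA synthetase activity, did not pass either (-0.06 ± 0.09, 95% interval -0.12 to 0.00, adjusted p 0.102). Its levels were 9.47, 9.60 and 9.76 in HFD livers, against 9.50, 9.62 and 9.95 in the pool. It passed on the arrays with HFD RNA in Cy3 alone (-0.11, adjusted p 0.0085). The 7 probes of transcript hamV2-106099 lay between -0.06 and 0.00 and none was called. Of the 2 probes of hamV2-59805, CUST_47107 rose (0.25 ± 0.10, adjusted p 2.98e-05) in 10 of 10 animals and CUST_47108 did not pass (0.07 ± 0.14).

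FABP1, the abundant fatty acid carrier of the hepatocyte cytosol, fell by 0.30 on the log2 scale (SD 0.17, adjusted p 1.58e-04) and was below 0 in 10 of 10 animals. Its level was 17.14, 17.34 and 17.47 in HFD livers, against 17.55, 17.61 and 17.74 in the pool, and the 2 ranges did not overlap. The 2 dye orientations gave opposite directions. With HFD RNA in Cy5 the ratio was 0.41 ± 0.14 (adjusted p 1.48e-06), above 0 on all 10 arrays, and with HFD RNA in Cy3 it was -1.01 ± 0.27 (adjusted p 7.31e-07), below 0 on all 10. The array holds 1 FABP1 probe, and its signal is brighter than that of 99.98% of probes. Among all named genes 956 (6.91%) were called in opposite directions in the 2 orientations, and among the brightest 1% of them 49 of 139 (35.3%). Albumin, the bright hepatocyte marker ALB, split the same way, with 0.35 and -0.81. The part the dyes play in the FABP1 average was not tested.

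DBI, which binds long-chain acyl-CoA esters in the cytosol, fell by 0.96 on the log2 scale (SD 0.18, adjusted p 1.17e-08), with every animal between -1.21 and -0.68. Its level was 13.85, 13.99 and 14.34 in HFD livers, against 14.88, 15.00 and 15.09 in the pool. The highest HFD liver lay below the lowest pool measurement. The ratio was -1.07 with HFD RNA in Cy5 and -0.85 with HFD RNA in Cy3. It was -1.0 without the 6 arrays named above, in the same fit of single arrays. DBI, like FABP1, has 1 probe on the array.

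**Figure D2:**
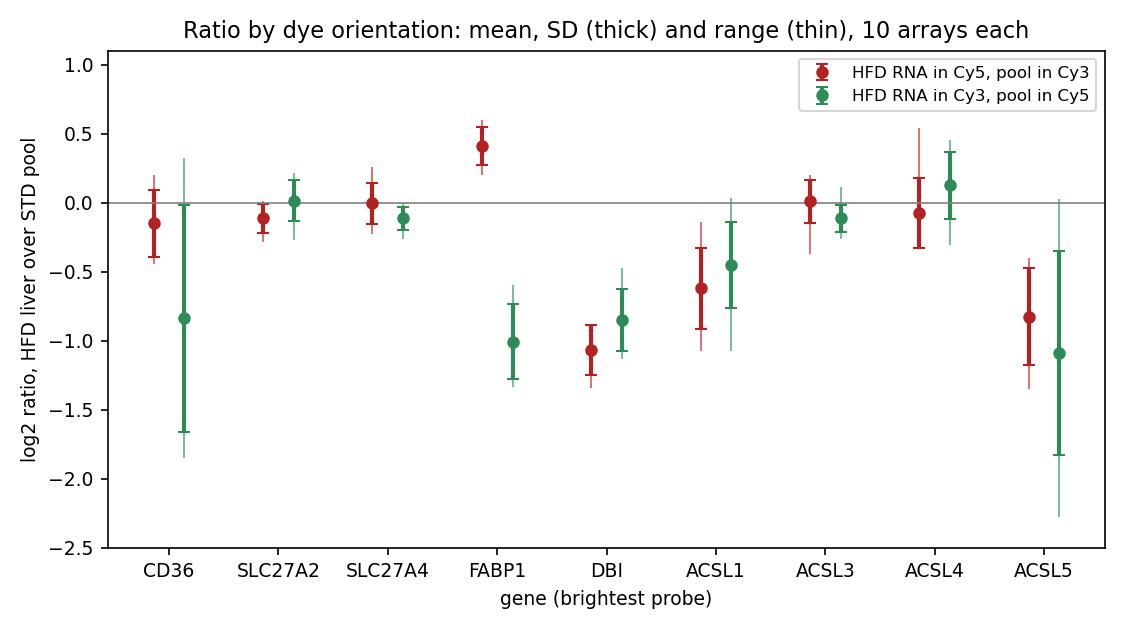
Mean log2 ratio of HFD liver over the STD pool (y axis) of the 9 genes (x axis), apart for the 10 arrays with HFD RNA in Cy5 (red) and the 10 with HFD RNA in Cy3 (green). Thick bars are SD and thin lines the range. FABP1 lies above 0 in one orientation and below 0 in the other, CD36 spreads from -1.85 to 0.33 with HFD RNA in Cy3, and DBI, ACSL1 and ACSL5 have means below 0 in both.

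ACSL5, a synthetase of the endoplasmic reticulum and mitochondria, fell by 0.96 on the log2 scale (SD 0.50, adjusted p 4.21e-05), below 0 in 10 of 10 animals. Its level was 7.96, 8.86 and 9.55 in HFD livers, against 9.41, 9.71 and 9.83 in the pool, with a small overlap at the top of the HFD range. Animals 9 and 10 stood lowest, at -1.73 and -1.81, and animal 3 highest, at -0.19. All 9 probes, of 1 transcript, fell, with means from -1.07 to -0.62. The 6 arrays of animals 5 to 10 that carried HFD RNA in Cy3 read between -2.27 and -0.94, and the 10 arrays with HFD RNA in Cy5 read between -1.35 and -0.40. Without those 6 arrays, in the fit of single arrays, the ratio was -0.63 and still called (adjusted p 1.21e-05). On the arrays with HFD RNA in Cy5 it was -0.83 ± 0.35 (adjusted p 2.25e-06).

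ACSL1, the main long-chain acyl-CoA synthetase of liver, fell at all 14 of its probes, but by amounts that differed between transcripts. At the brightest probe the ratio was -0.54 ± 0.29 (adjusted p 7.17e-05), below 0 in 10 of 10 animals. The level there was 12.95, 13.47 and 13.98 in HFD livers, against 13.74, 14.06 and 14.13 in the pool. The 7 probes of hamV2-106212 had means from -0.78 to -0.54, and the single probe of hamV2-63271 had -0.53. The 5 probes of hamV2-73051 had means from -1.54 to -1.25, and the single probe of hamV2-232 had -1.68 ± 0.49. The mean over all 14 probes was -1.0 ± 0.21.

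Averaged per animal, hamV2-73051 read -1.42 ± 0.43 and hamV2-106212 -0.67 ± 0.23, a difference of -0.75 ± 0.51 (exact sign-flip permutation test over 10 animals, two-sided, p 0.00391, adjusted p 0.00586 over the 3 transcript pairs tested). This pair was chosen after its values were seen, so its p-values are descriptions and carry no weight as a test. The ratio of hamV2-73051 was the lower of the 2 in 9 of 10 animals, with animal 2 at a difference of 0.03. The difference was also present on the arrays with HFD RNA in Cy5 alone (-0.57 ± 0.28, 10 of 10 animals, exact p 0.00195, the smallest this design allows, adjusted p 0.00586) and without the 6 arrays (-0.49, exact p 0.00391, adjusted p 0.0117). The 2 probes that share 41 bases on opposite strands, printed above, read -1.25 ± 0.39 (CUST_60347) and -0.72 ± 0.25 (CUST_78305), the first lower in 8 of 10 animals. Which RNA the probes of the opposite strand bound was not tested.

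**Figure D3:**
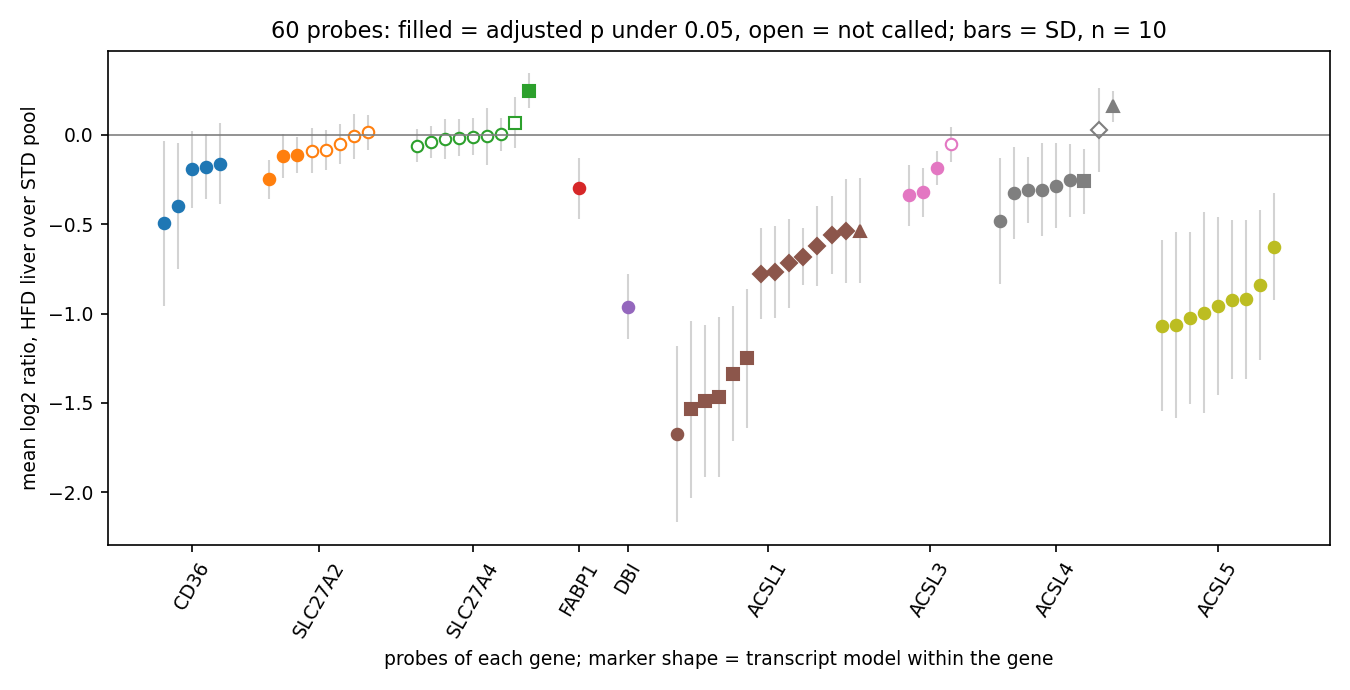
Mean log2 ratio of HFD liver over the STD pool (y axis) for the 60 member probes that passed the filter, ordered within each gene (x axis), with SD between 10 animals as bars. Marker shape tells the transcript models of a gene apart. The ACSL1 probes form 2 levels, from -1.68 to -1.25 and from -0.78 to -0.53, while the 9 ACSL5 probes lie together between -1.07 and -0.62.

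ACSL3, the synthetase tied to lipid droplets, did not pass at its brightest probe (-0.05 ± 0.10, 95% interval -0.12 to 0.02, adjusted p 0.168). Its levels there were 8.11, 8.74 and 8.81 in HFD livers, against 8.35, 8.75 and 8.88 in the pool. It passed on the arrays with HFD RNA in Cy3 alone (-0.11, adjusted p 0.0144) and was at 0.0094 on those with HFD RNA in Cy5. The 3 dimmer probes of the same transcript, hamV2-3996, all fell, with means of -0.34 ± 0.17, -0.32 ± 0.14 and -0.18 ± 0.09, each below 0 in 10 of 10 animals. The fifth probe, of hamV2-91109, was well above background in HFD RNA on 8 arrays and in the pool on 9 of 20, and was the only one of the 61 left out by the filter.

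ACSL4, which prefers arachidonate, did not pass at its brightest probe (0.03 ± 0.23, 95% interval -0.11 to 0.17, adjusted p 0.745). The animals split evenly around 0, from -0.32 in animal 8 to 0.50 in animal 9. Levels were 9.25, 9.51 and 9.98 in HFD livers, against 9.44, 9.48 and 9.66 in the pool. Of the 8 other probes 7 fell, with means from -0.48 to -0.25, and CUST_8170 of hamV2-7677 rose (0.16 ± 0.09, adjusted p 5.35e-04), a dim probe that was well above background on 13 arrays in HFD RNA and on 4 in the pool. It passed the filter through HFD RNA alone, the side where it reads higher, so its call carries no weight as a test.

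The brightest ACSL4 probe, the only one of hamV2-54624, and the 6 probes of hamV2-24693 differed, with hamV2-24693 lower by a mean of -0.35 ± 0.33 (-0.33 ± 0.24, against 0.03 ± 0.23) in 8 of 10 animals (exact sign-flip permutation p 0.00781, adjusted p 0.00781). For SLC27A4, hamV2-106099 was below hamV2-59805 in 10 of 10 animals, at a mean difference of -0.18 ± 0.07 (exact p 0.00195, adjusted p 0.00586). Neither difference passed on the arrays with HFD RNA in Cy5 alone, where they were -0.11 for ACSL4 and -0.08 for SLC27A4 (adjusted p 0.125 each). The 3 transcript pairs were chosen after their values were seen, so their p-values are descriptions and carry no weight as tests. Among these pairs, open reading frames differed in SLC27A4 and ACSL1. For hamV2-106099, 7 probes were open as reverse complements and 6 as printed, and for hamV2-59805 1 and 2. For hamV2-73051, 5 probes were open as reverse complements and 4 as printed, and for hamV2-106212 5 and 7. Outside the pairs, the ACSL1 probe of hamV2-232 was open only as a reverse complement, and that of hamV2-63271 both ways. Of the 4 ACSL3 probes of hamV2-3996, 4 were open as reverse complements and 1 as printed, and of the 8 SLC27A2 probes 6 and 8. In the ACSL4 pair all probes were open both ways, so this count could not tell whether their strands differ. A difference in strand cannot be told apart here from one between transcripts.

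**Figure D4:**
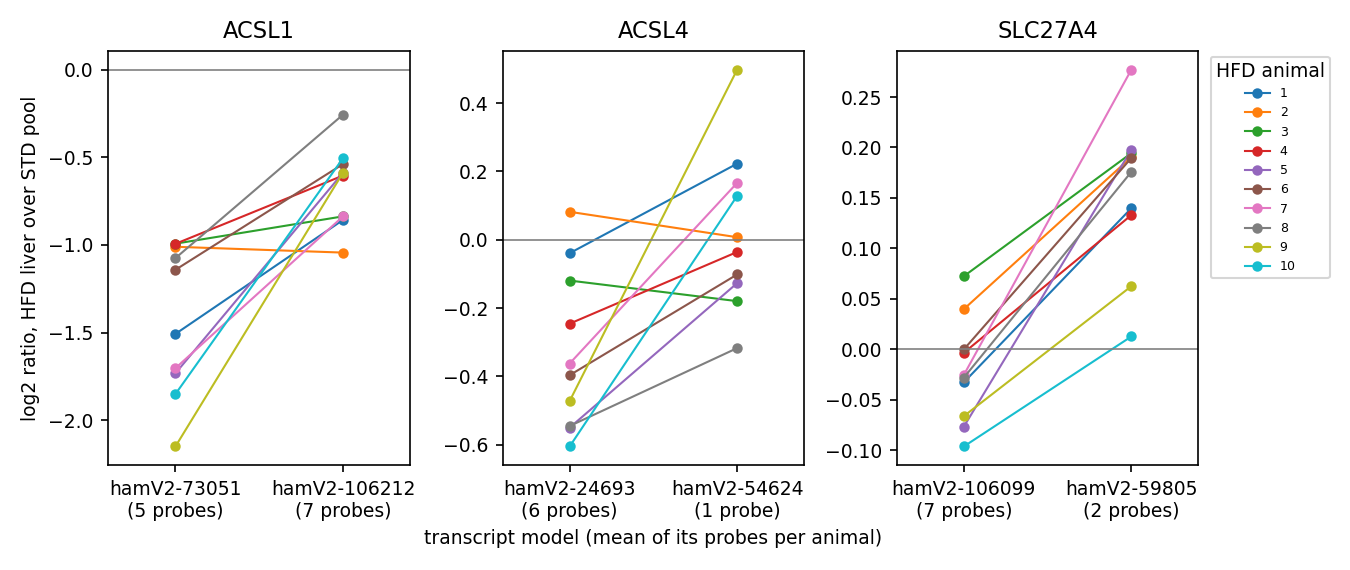
Log2 ratio of HFD liver over the STD pool (y axis, own scale in each panel) averaged over the probes of 2 transcript models (x axis) of ACSL1, ACSL4 and SLC27A4. Each line joins the 2 values of 1 HFD animal. In ACSL1 9 of 10 animals lie lower at hamV2-73051 than at hamV2-106212, in ACSL4 8 of 10 lie lower at hamV2-24693, and in SLC27A4 all 10 lie lower at hamV2-106099.

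Over the 60 probes that passed, 43 fell, 2 rose and 15 did not pass. Of the 2, ACSL4 CUST_8170 had passed the filter through HFD RNA alone. Over all 103879 probes 28.4% fell and 26.7% rose (55.1% in either direction). The 43 include all 14 of ACSL1, all 9 of ACSL5 and all 5 of CD36, and probes of 1 gene share their RNA and are not independent. All probes of each gene were also averaged in place of the brightest. Then 8 of the 9 genes fell, all but SLC27A4 (0.02 ± 0.05), beside 4038 of all 13828 named genes. The added genes were SLC27A2 (-0.09), ACSL3 (-0.22) and ACSL4 (-0.23), so whether these 3 count as lower depends on the probes taken.

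The 9 genes gave 36 pairs, of which 1 passed over the 10 animals: CD36 with ACSL5 (Pearson r 0.85, permutation p 8.3e-04, adjusted p 0.0299, and Spearman rho 0.78, permutation p 0.0105, adjusted p 0.378). Without the 2 animals farthest from the median of CD36, r was 0.76, and within animals 5 to 10 it was 0.84. On the arrays with HFD RNA in Cy5 alone it was 0.61, with HFD RNA in Cy3 alone 0.93, and without the 6 arrays of animals 5 to 10 that carried HFD RNA in Cy3 0.63 (adjusted p 0.612). Ratios of 1 animal share their arrays and the pool.

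As a description over the same 10 animals, the named gene outside the 9 with the ratio most like each called gene was MOCS2 for CD36 (r 0.99), FXYD1 for ACSL5 (r 0.98), ADAM12 for ACSL1 (r 0.96), ATP5E for DBI (r 0.95) and MATK for FABP1 (r 0.91). CD36 had 483 genes above an r of 0.9, ACSL5 had 91, ACSL1 had 43, and DBI and FABP1 had 1 each.

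Other genes of the same steps were read from 4 lists. Of 8 measured fatty acid transporters, receptors and carriers outside the 9, 4 rose and 0 fell (median 0.11, 0 lower at an unadjusted p under 0.05). FABP3, the heart-type carrier, rose most (1.22 ± 0.49, adjusted p 4.64e-06, 2.33-fold), from 0.26 in the lowest animal to 1.93 in the highest. LPL, the lipase that frees fatty acids from lipoproteins, rose by 0.81 ± 0.19, and SLC27A3, a further transport protein of the SLC27 family, by 0.13 ± 0.11 (adjusted p 0.0042). FABP3 and FABP1, both cytosolic carriers, thus stood on opposite sides of 0 in the dye average, and FABP3 was above 0 in both orientations (1.08 with HFD RNA in Cy5 and 1.36 in Cy3).

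Of 11 other acyl-CoA synthetases 6 fell and 2 rose (median -0.21). ACSF2, a mitochondrial medium-chain synthetase, fell by 0.87 ± 0.21 (adjusted p 7.79e-08), and ACSS3, a short-chain synthetase, by 0.57 ± 0.13. ACSF3, which activates malonate in mitochondria, rose by 0.38 ± 0.10 in 10 of 10 animals. ACSL6, the fifth member of the ACSL family and chosen after seeing its value, fell by 0.58 ± 0.37 in 10 of 10 animals. Of 5 other acyl-CoA binding proteins 4 fell and 0 rose (median -0.26, 0 higher at an unadjusted p under 0.05), led by ACBD4 (-0.63 ± 0.19) and the peroxisomal tether ACBD5 (-0.33 ± 0.14), with the Golgi protein ACBD3 at -0.18 ± 0.09. DBI, the small cytosolic binding protein, had a lower ratio than any of these 5.

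Of 14 transcription regulators of fatty acid genes 7 fell and 5 rose (median -0.07). The lipogenic factors SREBF1 and MLXIPL rose by 1.27 ± 0.28 and 0.59 ± 0.16, and RXRA, the partner of the fatty acid receptors, by 0.47 ± 0.19. PPARA, a fatty acid receptor that drives several of the 9 genes in rodents and was chosen after seeing its value, fell by 0.32 ± 0.24 (adjusted p 9.42e-04). Of the same receptor family, PPARG rose (0.11 ± 0.09, adjusted p 0.00651) and PPARD fell (-0.14 ± 0.18, adjusted p 0.0259). The part of these receptors in the values of the 9 genes was not tested.

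**Figure D5:**
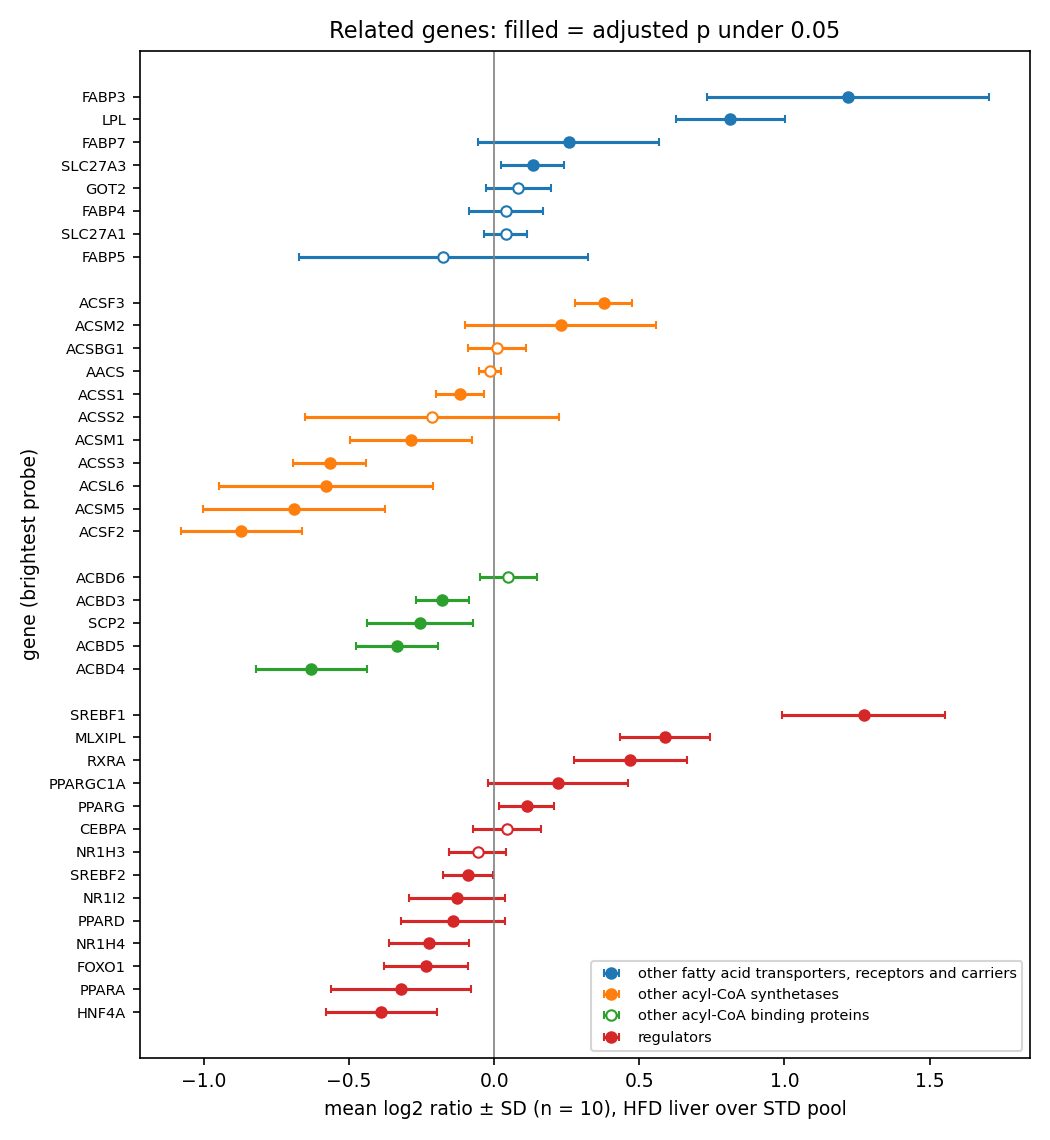
Mean log2 ratio of HFD liver over the STD pool, with SD over 10 animals (x axis) for the measured genes of 4 lists (y axis, 1 colour each). Filled points passed an adjusted p of 0.05. FABP3 and SREBF1 stand farthest above 0, at 1.22 and 1.27, and ACSF2 farthest below it, at -0.87.

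Hepatocyte markers fell beside the 5 genes: 9 of 11 were called lower and 1 higher, with a median of -0.41 and animal means between -0.76 and -0.25. Their part in the fall of the 5 genes was not tested. Of 9 macrophage markers 5 rose and 3 fell, of 9 endothelial markers 3 rose and 3 fell, of 9 stellate cell markers 4 rose and 1 fell, of 5 adipocyte markers 1 rose and 2 fell, of 6 lymphocyte markers 5 fell, and of 4 cholangiocyte markers 0 were called (0 at an unadjusted p under 0.05). CD36 is also made by macrophages, endothelium and adipocytes, and the part of these cells in its value was not tested. HFD RNA gave a signal well above background at 77.2% to 97.7% of an array's probes, and pool RNA at 76.7% to 96.7%. No spot was saturated.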

How the data were processed

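Liver RNA was measured on 20 Agilent arrays of 2 colours, and per the labels' protocols 100 ng was labelled with a whole-transcript kit. The deposited spot intensities (mean signal and median local background) and processed signals came from Agilent's scanner software, per the file headers. The authors also deposited log2 ratios, for which the submitters' processing notes name limma; their background method, normalisation and combination of arrays: not given in the sources used here. Their columns correlated at 0.92 to 0.973 with the ratios computed here and had medians from -0.0144 to 0.0185, so they run on a log2 scale in the same direction, while their exact centring stays unknown. The dye of each RNA, and so every direction, rests on the array names. Arrays lay on 7 slides and in 3 scan sessions.

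Here intensities were corrected with normexp (offset 50) and normalised by loess in limma 3.58.1 (R 4.3.3), without control or outlier spots; spots of a probe were averaged, ratios turned to HFD over pool, and both arrays of an animal averaged. A probe needed to be well above background in HFD RNA or pool on at least 10 arrays. lmFit and eBayes tested the mean against 0, treating the pool as 1 RNA without error. The code was tested on simulated ratios. All 9 member symbols occur in RefSeq's hamster annotation BCM_Maur_2.0; no coordinates, promoters or proteins were used here. Members, lists and the naming rule (all members, up to 3 called genes of smallest p per list, the most similar gene per called member) were chosen with earlier results of these data known. ACSL6, PPARA, PPARG and PPARD were named outside this rule.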

Additional observations from a re-analysis of the deposited data

Results flagged for a closer look

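Of 60 member probes tested for a stray animal with Dixon's criterion at the 95% level, which chance meets in about 1 of 20 groups, 1 was met. At SLC27A2 probe CUST_85261, which was called lower, animal 9 stood at -0.39 on the log2 scale, and the nearest animal at -0.18.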

How the results depend on the processing

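No paired analysis was possible because every animal belongs to the HFD group and the STD animals were hybridised only as a pool. DBI, ACSL5 and ACSL1 kept their direction and their call under all 25 alternatives tried, with ranges of -1.07 to -0.85, -1.12 to -0.63 and -1.0 to -0.45. With only the arrays with HFD RNA in Cy5, FABP1 was higher (0.41), which made 1 member gene higher, beside 4081 of 13828 named genes. ACSL3 (0.0094) and ACSL4 (-0.072) changed sign there without a call. With only HFD RNA in Cy3, SLC27A2 was at 0.013, and ACSL3 (-0.11, adjusted p 0.0144) and SLC27A4 (-0.11, adjusted p 0.0085) were also called lower. That made 7 member genes lower, beside 4471 of 13828 named genes. SLC27A2 was called lower with only HFD RNA in Cy5 (-0.11, adjusted p 0.0162), without the 6 arrays of animals 5 to 10 with HFD RNA in Cy3 (-0.11, adjusted p 0.0200) and with slide as a random block (-0.056, adjusted p 0.0471). SLC27A4 was called lower with that block (-0.060, adjusted p 0.0237) and without animal 8 (-0.081, adjusted p 0.0222). The slide fit took all 20 arrays singly and treated the 2 arrays of an animal as independent. With animal as the random block on the same 20 arrays, neither gene passed (limma, adjusted p 0.164 for SLC27A2 and 0.0942 for SLC27A4). Median centring in place of loess put ACSL3 at 0.010 and left 1 member probe higher, as did the strict filter, which tested 46 of the probes. The mean of all probes gave 8 member genes lower, beside 4038 of 13828 named genes. SLC27A2, ACSL3 and ACSL4 were the members added, with ACSL4 at -0.23 and SLC27A4 at 0.018. Scan session 3 alone called 5095 named genes (2360 lower, 2735 higher) and 0 member probes higher, with fewer arrays; session 2 holds 1 array and gave no value. Leaving out each animal gave 5 to 6 member genes lower, 42 to 44 member probes lower and ACSL4 between -0.026 (without animal 9) and 0.064. Without the 6 arrays of animals 5 to 10 that carried HFD RNA in Cy3, an alternative added after seeing the data for this value, the CD36 and ACSL5 correlation was 0.63. The cause of these changes was not tested. The ACSL4 and SLC27A4 transcript differences also fell short without those arrays (-0.12 and -0.06). For the correlation and the transcript differences the remaining arrays were averaged per animal. For the genes they were fitted singly with a dye term and animal as a random block. The number of arrays limits the precision.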
